A study of Homo sapiens with 30 samples.

Results

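The 39 genes described here encode the parts of autophagy and of the lysosome that carry the name prefixes ATG, GABARAP, MAP1LC3, ATP6V, ATP6AP, CTS and LAMP; SQSTM1, which the choice also names, is not analysed here. They were chosen by name and by level, with earlier results of these data known. Of the deposited gene names 57 matched, and 39 of these had an FPKM of 1 or more in at least 3 of the 30 wells. In the whole series 8531 genes passed the same filter. The other 18 matching names stayed below it. Just inside stood the long non-coding RNA ATP6V1B1-AS1, at 1 FPKM or more in 3 wells, and just outside stood CTSS and ATG16L2, each in 2 wells. FPKM is the number of fragments scaled to transcript length and to the mapped fragments of the library, so levels can be set against each other between genes.

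RNA was sequenced from BEAS-2B cells, an immortalised line of human bronchial epithelium, after a 30 min exposure on a rocker to the smoke of one of 4 hookah set-ups. These were tobacco shisha heated electrically, tobacco shisha heated with charcoal, herbal shisha without tobacco heated with charcoal, and burning charcoal with no shisha; the wells they are set against were labelled internal control. Each of these 5 conditions was harvested 2 h and 24 h later in 3 wells, which gave 10 groups. Each exposure was given at the highest amount without lactate dehydrogenase release at 24 h. The amounts themselves, and what the control wells received, are not given in the sources used here, so the exposures cannot be set on one dose scale. Nothing says that the 3 wells of a group came from separate cultures; the p-values therefore measure the spread between wells, which may be technical. RNA came from whole wells, so fewer cells of a kind and less RNA per cell cannot be told apart.

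Autophagy encloses cytoplasm in a double membrane and delivers it to the lysosome. The ATG12, ATG5 and ATG16L1 proteins form the complex that attaches ATG8 family proteins (the LC3 and GABARAP proteins) to the growing membrane, and ATG14 directs the lipid kinase that starts it. In the lysosome the V-ATPase pumps protons: its V1 sector hydrolyses ATP in the cytosol, its V0 sector carries the protons through the membrane, and the resulting acidity lets cathepsins degrade protein. The transcription factor TFEB and its relatives bind an E-box variant in the promoters of many such genes, called the CLEAR element. In airway epithelium, autophagy and lysosomal genes are known to respond to inhaled smoke.

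Of 6 epithelial markers in the tables, the keratins KRT8 and KRT18 stood between 208 and 728 FPKM over all wells and KRT19 between 19.8 and 65.7 FPKM, whereas the adhesion proteins CDH1 and EPCAM and the basal keratin KRT5 stayed below 1 FPKM in every well. Of 7 fibroblast markers 3 were present, COL1A1 at 44.4 to 172 FPKM, THY1 at 82.1 to 162 FPKM and COL1A2 at 5.34 to 35.9 FPKM; the other 4 stayed below 1 FPKM, and DCN was at 0 throughout. Of 8 leukocyte markers CD68, which is also a lysosomal membrane protein, stood at 6.91 to 18.0 FPKM, and the other 7 stayed below 1 FPKM, with PTPRC at 0.022 FPKM or less. None of 5 endothelial markers reached 1 FPKM. Samples of one group correlated at 0.984 to 0.992 on the log2 scale, and 7598 to 7944 genes reached 1 FPKM per well. The number of reads behind each well is unknown, since the tables hold no counts.

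Because the CLEAR element is the sequence best known for these genes, their promoters were searched for it, in RefSeq windows of build GRCh38.p14 that run from 250 bases before to 50 after each start site. Of the 39 genes, 30 matched an entry, and all sequences are from RefSeq. The E-box CACGTG, which reads the same on both strands, was found in 8 of the 30 genes (26.7%), counting a match in any window of a gene. Counted in the same way, 12.3% of the 6267 tested genes that have an entry held it. The share of all 35116 promoters, each counted singly, was 7.26%, so it is not on the same footing. The extended form TCACGTGA, which contains the E-box, was found in 3 of 30 genes (10%), ATP6V0D1, ATP6V1G1 and CTSA, beside 0.98% of all promoters and 2.04% of tested genes. A match is only a match of letters. The 8 E-box genes follow, with the 12 bases on each side of the copy nearest the start site, on the gene's own strand, with the E-box in capitals, because they are the promoters to set beside the expression changes.
ATP6V0D1: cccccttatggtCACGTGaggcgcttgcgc
ATP6V1G1: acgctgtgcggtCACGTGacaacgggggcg
ATP6V0B: gtaccggcgcatCACGTGggcgagttaggt
ATP6V0E2: tcccttctgcatCACGTGgggactgcgcct
CTSA: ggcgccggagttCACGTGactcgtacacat
CTSD: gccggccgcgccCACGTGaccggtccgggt
CTSF: ccctgcgcgcccCACGTGcctcctgtaaac
ATG14: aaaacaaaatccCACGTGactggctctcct

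In the same build the windows lie at chr16:67481199-67481228 on the minus strand for ATP6V0D1, chr9:114587699-114587728 on the plus strand for ATP6V1G1 and chr1:43974909-43974938 on the plus strand for ATP6V0B. The window of ATP6V0E2 lies at chr7:149872884-149872913 on the plus strand and that of CTSA at chr20:45891298-45891327 on the plus strand. The remaining windows, all on the minus strand, lie at chr11:1763957-1763986 for CTSD, chr11:66568640-66568669 for CTSF and chr14:55411834-55411863 for ATG14. The E-box of ATP6V0D1 begins 59 bases before the start site, and those of the other genes begin between 21 and 68 bases before it. ATP6V0B, CTSA and CTSF hold a further copy that is not shown.

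The promoters were also searched on both strands for the core of the antioxidant response element, TGACNNNGC, and for the AP-1 site, TGANTCA, as motifs of the oxidant response. The antioxidant core was found in 12 of 30 genes (40%), beside 13.4% of all promoters and 19.6% of tested genes, counted as for the E-box. Of these 12 genes, 6 also held an E-box, which for ATP6V0E2 lay in the window of another start site. The letters of the motifs can overlap, and shared bases were not counted. AP-1 was found in 0 of 30, beside 7.71% and 7.15%. MAP1LC3B, ATP6V0A1 and CTSL, chosen for display because they rose at 24 h after electrically heated tobacco, held the antioxidant core, shown in capitals with 12 bases on each side.
MAP1LC3B: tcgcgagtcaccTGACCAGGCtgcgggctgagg
ATP6V0A1: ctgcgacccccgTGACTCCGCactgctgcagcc
CTSL: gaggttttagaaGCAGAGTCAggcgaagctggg

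These windows lie on the plus strand at chr16:87392278-87392310 for MAP1LC3B, chr17:42458750-42458782 for ATP6V0A1 and chr9:87726084-87726116 for CTSL, where the core is read on the opposite strand. Among the 8 genes that hold the E-box, 4 were higher and 2 lower at 24 h after electrically heated tobacco, and 2 were not called; among the 21 without it, leaving out the non-coding ATP6V1B1-AS1, 12 were higher, 4 lower and 5 not called. The median log2 changes were 0.28 with the E-box and 0.34 without. Of the 3 with the extended form, 2 were higher and 0 lower, with a median of 0.54, against 0.32 in the other 26. For the antioxidant core, 7 of the 12 genes with it were higher, 2 lower and 3 not called, with a median of 0.62, against 9 higher, 4 lower and 4 not called among the 17 without it, with a median of 0.30. Of all genes tested, 34.3% were higher and 29.5% lower in the same comparison, with a median log2 change of 0.03. The counts and medians by motif were not tested.

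Levels spread widely between the 39 genes. ATP6V0E1, a small V0 subunit, averaged 258 FPKM over the 30 wells, GABARAP 215, the aspartic protease CTSD 134 and the carboxypeptidase CTSA 101, and these 4 were the ones above 100. Another 24 averaged between 10 and 100. The lowest protein-coding genes were ATP6V0A2 at 3.91, ATG14 at 2.19, ATG10 at 1.80 and ATP6V1C2 at 1.29. In all, 35 of the 39 were at 1 FPKM or more in all 30 wells. ATP6V1B1-AS1 reached 1 FPKM in tobacco wells at 24 h alone, so its calls there follow from the filter; the affected counts are given without it.

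ATP6V1E1 and ATG5 each fell into separate levels that cut across the groups. ATP6V1E1, the V1 stalk subunit, stood at 48.7 to 54.5 FPKM in 6 wells and at 85.8 to 117 FPKM in the other 24, with nothing between. ATG5 stood at 5.89 to 6.76 FPKM in 5 wells and at 11.5 to 16.2 FPKM in the other 25. The low wells belonged to different groups for both genes, and 2 of the 3 control wells at 24 h were low for ATP6V1E1.

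Differences between groups were tested with limma on log2(FPKM + 1) in one fit over all 30 wells, and a gene was called at a Benjamini-Hochberg adjusted p under 0.05 over the 8531 genes. A log2 change is the mean of the first group minus that of the second on that scale, which understates the change of genes near 1 FPKM. All exposures of one time share the same 3 control wells.

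At 24 h the number of called genes was highest for electrically heated tobacco and lowest for charcoal alone. After electrically heated tobacco 28 of 38 were called against control without ATP6V1B1-AS1 (73.7%), beside 63.8% of all genes tested: 22 higher (57.9%), where 34.3% of all genes were higher, and 6 lower (15.8%), where 29.5% were lower. After tobacco heated with charcoal 25 of 38 were called, beside 44.5% of all genes, 18 higher (47.4%, beside 25.9% of all genes) and 7 lower (18.4%, beside 18.6%). With ATP6V1B1-AS1 each of these counts of called and of higher genes is larger by 1. After herbal shisha with charcoal 17 of 39 were called, beside 26.8% of all genes, 12 higher (16.5% of all genes) and 5 lower (10.4%). After charcoal alone 2 were called, GABARAPL1 and ATP6V0D1, both higher, beside 9.87% of all genes, of which 6.05% were higher and 3.82% lower; leaving out any of 5 single wells ended the call of ATP6V0D1 and left 1 gene. The median log2 change of the 38 genes was 0.32, 0.19, 0.06 and 0.07 in the same order, beside 0.03, 0.04, 0.03 and 0.02 over all genes tested. For the 3 shisha exposures the share of higher calls among the 38 lay above that of all genes at 24 h; this difference was not tested. Cell type markers moved at the same time: at 24 h the 7 fibroblast markers summed to 132 to 149.7 FPKM per well after electrically heated tobacco, 184 to 252 FPKM after tobacco with charcoal, 246 to 272 FPKM after herbal shisha and 333 to 340.1 FPKM after charcoal alone, against 289 to 305 FPKM in control wells. COL1A1 stood at 47.8 ± 4.4 FPKM after electrically heated tobacco, against 138 ± 10.1 FPKM in control wells, and the epithelial KRT19 at 21.7 ± 2.74 FPKM against 52.5 ± 5.59 FPKM (SD, n = 3 each). The other keratins moved less, KRT8 at 511 ± 3.65 FPKM against 560 ± 41 FPKM and KRT18 at 273 ± 33.4 FPKM against 351 ± 40.7 FPKM. The 6 epithelial markers summed to 768 to 829 FPKM per well after electrically heated tobacco, against 867 to 1030 FPKM in control wells. The part of these markers in the counts was not tested.

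**Figure D1:**
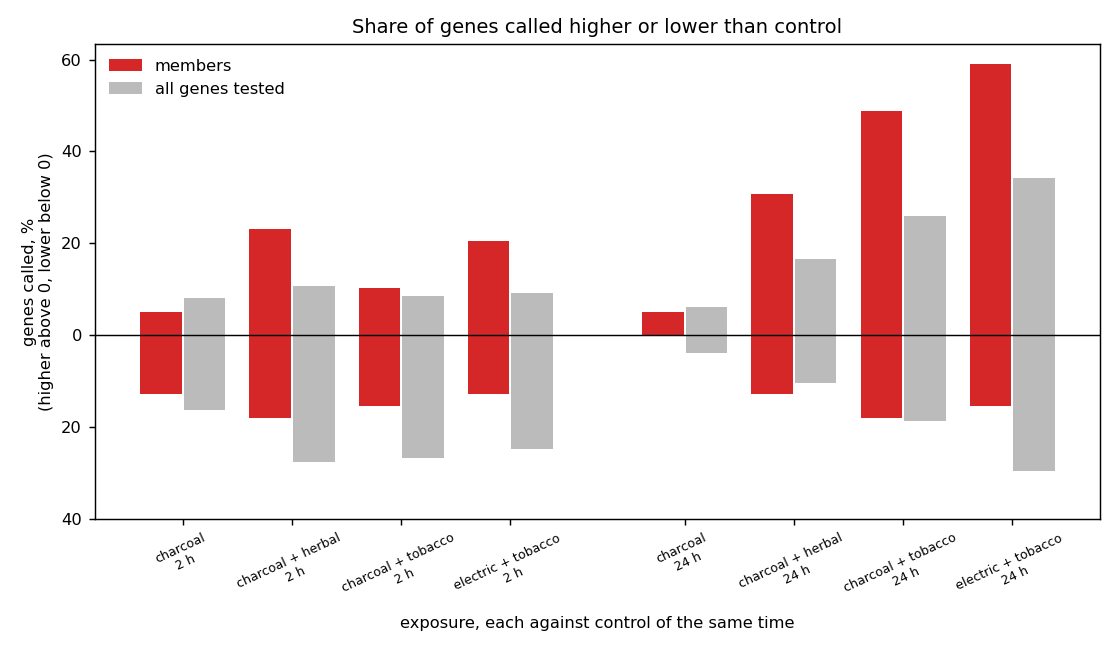
Share of genes called against control, in percent of the 39 autophagy and lysosome genes (red) and of the 8531 genes tested (grey), for each exposure at 2 h (on the left) and 24 h (on the right); bars above 0 are higher calls and bars below 0 lower calls. The red bars for higher calls at 24 h stand above the grey ones for the 3 shisha exposures, as for electrically heated tobacco, where 23 of the 39 genes were higher (22 of 38 without ATP6V1B1-AS1) beside 34.3% of all genes.

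At 2 h both tobacco exposures had fewer of the 39 called than at 24 h, herbal shisha nearly as many and charcoal alone more, in mixed directions. After electrically heated tobacco 13 were called, 8 higher and 5 lower, beside 34% of all genes (9.27% higher, 24.8% lower). After tobacco with charcoal 10 were called, 4 higher and 6 lower, beside 35.2% (8.5% higher, 26.7% lower). After herbal shisha with charcoal 16 were called, 9 higher and 7 lower, beside 38.2% (10.6% higher, 27.7% lower). After charcoal alone 7 were called, 2 higher and 5 lower, beside 24.4% (8.16% higher, 16.2% lower). The split at 2 h depends on the scale, because the median of all genes lay 0.04 to 0.08 below 0 on the log2 scale at that time. With median-of-ratios scaling between wells the splits became 16 higher and 2 lower for electrically heated tobacco (18.5% and 18.6% of all genes), 8 and 1 for tobacco with charcoal (19.4% and 16.2%), 14 and 2 for herbal shisha (20.9% and 17.6%), and 6 and 1 for charcoal alone (11.4% and 7.82%). Single wells also mattered at 2 h. The electric count was 7 without control well 2 and 7 without electric well 3. The herbal count was 10 without control well 2, 9 without herbal well 1 and 10 without herbal well 3.

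**Figure D2:**
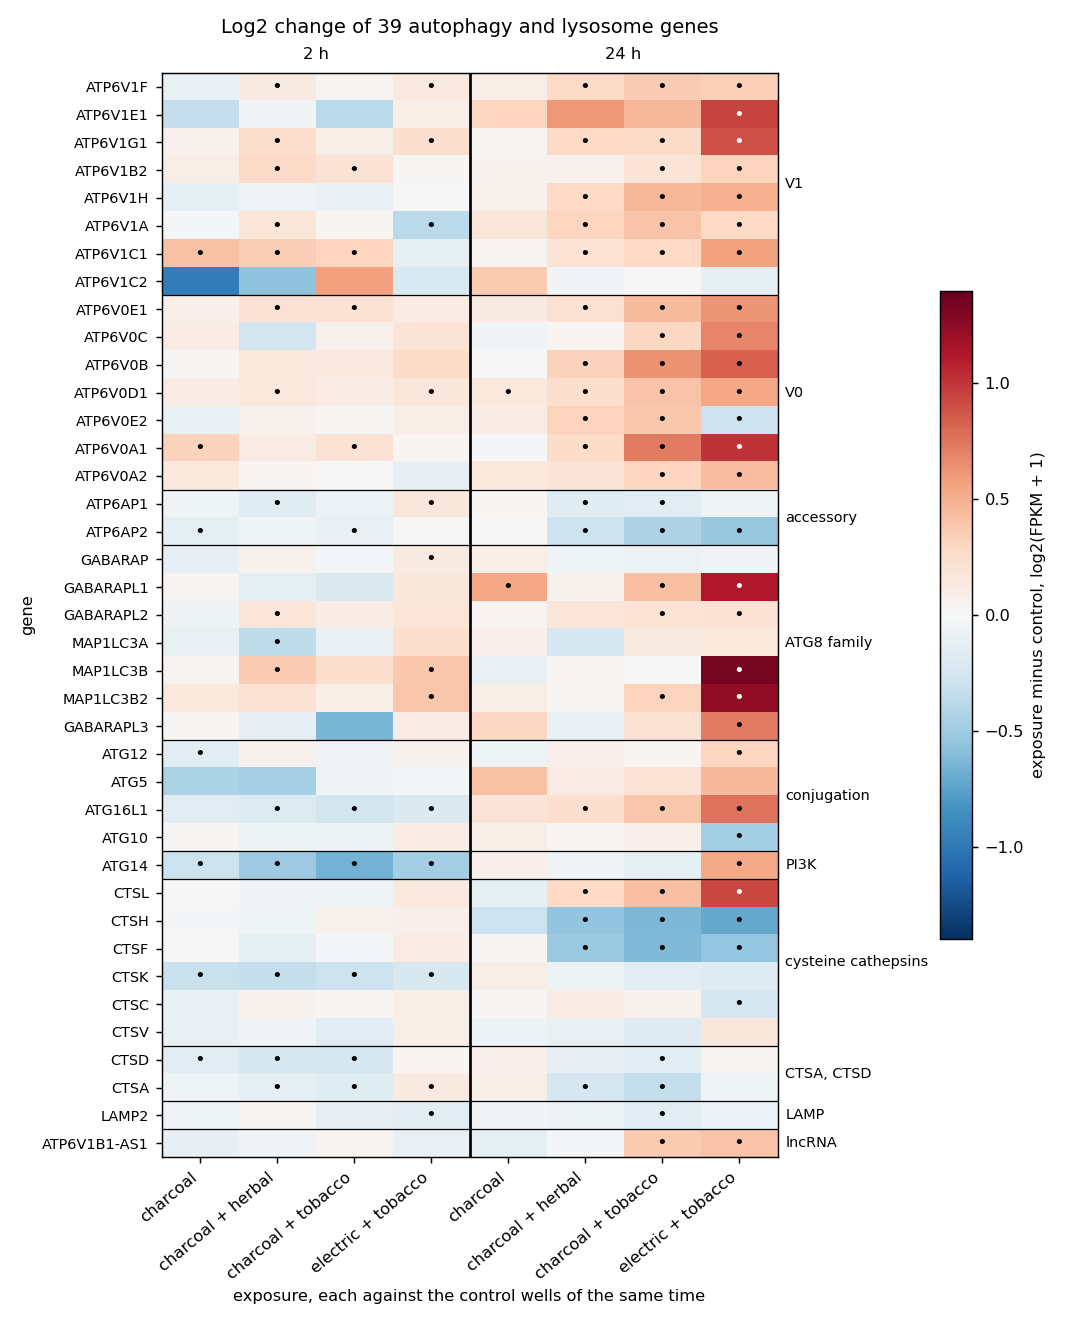
Log2 change against the control wells of the same time for the 39 genes (rows, by role and then by mean level) after each exposure (columns) at 2 h and 24 h; red is higher and blue lower, and a dot marks an adjusted p under 0.05. At 24 h the columns fill with red dots towards electrically heated tobacco, where the largest value is 1.34, while ATP6AP2, CTSH and CTSF are blue; at 2 h ATG14 and CTSK are blue in all 4 columns.

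The genes of both sectors of the proton pump were mostly higher at 24 h after the shisha exposures. Electrically heated tobacco had 7 of 8 V1 and 6 of 7 V0 genes higher and 1 V0 gene lower (34.3% and 29.5% of all genes). Tobacco with charcoal had 6 of 8 V1 and 7 of 7 V0 genes higher (25.9%), and herbal shisha had 5 of 8 and 5 of 7 higher (16.5%). Charcoal alone had 0 of 8 V1 genes called and 1 of 7 V0 genes higher (6.05%). At 2 h herbal shisha had 5 of 8 V1 and 2 of 7 V0 genes higher, beside 10.6% of all genes. Of these calls, that of ATP6V1A was lost under 7 alternatives, that of ATP6V1G1 under 3 and that of ATP6V0D1 under 1 (limma adjusted p up to 0.1705). The other exposures had 1 or 2 genes higher per sector at 2 h (8.16% to 9.27% of all genes). Electrically heated tobacco also had 1 V1 gene lower then (24.8%). Without ATP6V1E1, the 7 other V1 genes summed at 24 h to 343 ± 19.8 FPKM after electrically heated tobacco, 297 ± 13.6 FPKM after tobacco with charcoal, 280 ± 8.68 FPKM after herbal shisha and 250 ± 11 FPKM after charcoal alone, against 237 ± 2.85 FPKM in control wells (SD, n = 3 each). The 7 V0 genes summed to 619 ± 20.6, 545 ± 33.6, 463 ± 33.8 and 424 ± 10.8 FPKM in the same order of exposures, against 400 ± 10.5 FPKM in control wells (SD, n = 3 each). Control wells had been higher at 2 h, at 264 ± 2.41 FPKM for these 7 V1 genes and 467 ± 4.23 FPKM for the V0 genes (SD, n = 3 each). The mean V0 sums of herbal shisha and charcoal alone at 24 h, and the V1 sum of charcoal alone, lay below those 2 h control means.

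In the V0 sector, ATP6V0A1 encodes a membrane subunit of the proton path, one of several alternative forms that place the pump in different membranes. At 24 h it stood at 19.5, 18.3 and 17.1 FPKM after electrically heated tobacco, 17.2, 13.8 and 13.5 FPKM after tobacco with charcoal and 10.1, 9.76 and 11.4 FPKM after herbal shisha, against 8.68, 9.13 and 7.84 FPKM in control wells. All 9 of these exposed wells lay above all 3 control wells. The log2 changes were 1.01 ± 0.07 (SE; adjusted p = 7.78e-11), 0.72 ± 0.07 (adjusted p = 8.74e-08) and 0.26 ± 0.07 (adjusted p = 0.0118). After charcoal alone at 24 h it stood at 8.24, 8.95 and 8.17 FPKM, within the control range, with a log2 change of -0.01 ± 0.07. At 2 h it had been higher after charcoal alone, with a mean of 12.56 FPKM against 9.84 FPKM in control wells. That log2 change was 0.32 ± 0.07 (SE; adjusted p = 0.00194). It was also called higher at 2 h after tobacco with charcoal, by 0.21 (adjusted p = 0.0307), and not after the other exposures. That call was lost on leaving out any of 5 single wells (limma adjusted p up to 0.113). For charcoal alone the difference between the times was -0.34 (adjusted p = 0.0203). The relative ATP6V0A2 was higher at 24 h by 0.43 after electrically heated tobacco and by 0.31 after tobacco with charcoal.

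ATP6V0D1, the V0 subunit that couples the sectors and whose promoter holds the CLEAR core shown above, was the only member called in the same direction by all 4 exposures at 24 h. It stood at 63.3, 58.4 and 63.8 FPKM after electrically heated tobacco, 57.9, 56.5 and 53.5 FPKM after tobacco with charcoal, 48.8, 49.4 and 51.5 FPKM after herbal shisha and 47.9, 46.4 and 45.4 FPKM after charcoal alone, against 43.8, 40.4 and 42.1 FPKM in control wells. No exposed well overlapped the control wells. The log2 changes ran from 0.54 ± 0.04 (SE; adjusted p = 5.75e-10) for electrically heated tobacco through 0.40 and 0.24 to 0.14 ± 0.04 for charcoal alone. The charcoal call was marginal (adjusted p = 0.045) and was lost under 8 of the alternatives, among them median-of-ratios scaling and the omission of any of several single wells, with an adjusted p of up to 0.193. The control wells had themselves moved: ATP6V0D1 averaged 42.1 ± 1.71 FPKM in them at 24 h and 53.3 ± 1.2 FPKM at 2 h (SD, n = 3 each).

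The proteolipid genes, which form the rotating ring of V0, followed. ATP6V0C stood at 127, 108 and 118 FPKM after electrically heated tobacco and 101, 92.6 and 75.1 FPKM after tobacco with charcoal, against 73.4, 72.6 and 71.0 FPKM in control wells, without overlap. ATP6V0B stood at 84.4, 93.1 and 77.6 FPKM after electrically heated tobacco and 75.9, 72.9 and 70.0 FPKM after tobacco with charcoal, against 48.0, 42.9 and 50.1 FPKM in control wells, again without overlap. The log2 changes after electrically heated tobacco were 0.69 ± 0.10 for ATP6V0C and 0.84 ± 0.10 for ATP6V0B (SE). ATP6V0E1 was higher by 0.62 after electrically heated tobacco, 0.45 after tobacco with charcoal and 0.21 after herbal shisha.

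The exception in V0 was ATP6V0E2, the alternative form of ATP6V0E1. At 24 h it stood at 18.4, 20.9 and 16.7 FPKM after electrically heated tobacco, below the 22.5, 22.3 and 23.8 FPKM of the control wells, but at 29.8, 29.7 and 30.2 FPKM after tobacco with charcoal and 25.6, 27.9 and 32.7 FPKM after herbal shisha, above them. The log2 change was -0.28 ± 0.08 after electrically heated tobacco (adjusted p = 0.00207), 0.37 ± 0.08 after tobacco with charcoal and 0.31 ± 0.08 after herbal shisha (SE), the last of which was lost with the compared groups alone (adjusted p = 0.0563). Electrically heated tobacco and tobacco with charcoal differed by -0.66 ± 0.08 (adjusted p = 4.37e-07). An antisense gene overlaps ATP6V0E2, and the strand setting of the counting is not given in the sources used here, so reads of the pair cannot be told apart. As deposited, ATP6V0E2-AS1 stood at 0.284, 0.354 and 0.291 FPKM in the electric wells at 24 h, and at 0.168, 0.462 and 0.421 FPKM in control wells.

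In the V1 sector, ATP6V1G1, a stalk subunit, stood at 113, 89.2 and 130 FPKM at 24 h after electrically heated tobacco, 75.3, 66.5 and 67.6 FPKM after tobacco with charcoal and 70.9, 68.4 and 72.0 FPKM after herbal shisha, against 59.4, 55.2 and 58.9 FPKM in control wells. Every well of these exposures lay above the control wells, and the 3 electric wells lay above all others. Log2 changes stood at 0.91 ± 0.08 (SE; adjusted p = 1.77e-09), 0.27 ± 0.08 and 0.28 ± 0.08; the herbal call was lost without control well 2 or herbal well 3 (adjusted p up to 0.0637). ATP6V1C1, the subunit that joins and releases the sectors, was higher by 0.56, 0.28 and 0.19 in the same order of exposures, and the regulatory subunit ATP6V1H by 0.50, 0.47 and 0.28.

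ATP6V1A, the catalytic subunit, took another course. At 24 h it stood at 22.2, 24.5 and 23.1 FPKM after electrically heated tobacco, 27.8, 25.4 and 23.3 FPKM after tobacco with charcoal and 23.8, 23.2 and 24.1 FPKM after herbal shisha, against 18.9, 18.8 and 19.4 FPKM in control wells. All of these exposed wells were above control, with log2 changes of 0.28, 0.40 and 0.30. At 2 h it stood at 13.9, 13.8 and 12.6 FPKM after electrically heated tobacco, against 18.1, 17.0 and 17.9 FPKM in control wells, without overlap and with a log2 change of -0.38 ± 0.07 (SE; adjusted p = 0.000109). After herbal shisha ATP6V1A was called higher at 2 h, at 20.8, 18.4 and 21.2 FPKM, and that call was lost under 7 alternatives. ATP6V1B2, the partner of ATP6V1A in the ATPase head, was higher by 0.31 after electrically heated tobacco and by 0.19 after tobacco with charcoal at 24 h.

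ATP6V1E1 stood at 117, 116 and 117 FPKM at 24 h after electrically heated tobacco, against 51.6, 48.7 and 85.9 FPKM in control wells, with a log2 change of 0.95 ± 0.26 (SE; adjusted p = 0.00301). This value rests on the low level described above: the log2 change was 0.80 without the control well at 48.7 FPKM and 1.21 without the one at 85.9 FPKM. ATP6V1C2, a tissue-restricted form of ATP6V1C1, was called in none of the 8 comparisons with control, and its wells ranged between 0.0066 and 2.83 FPKM.

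**Figure D3:**
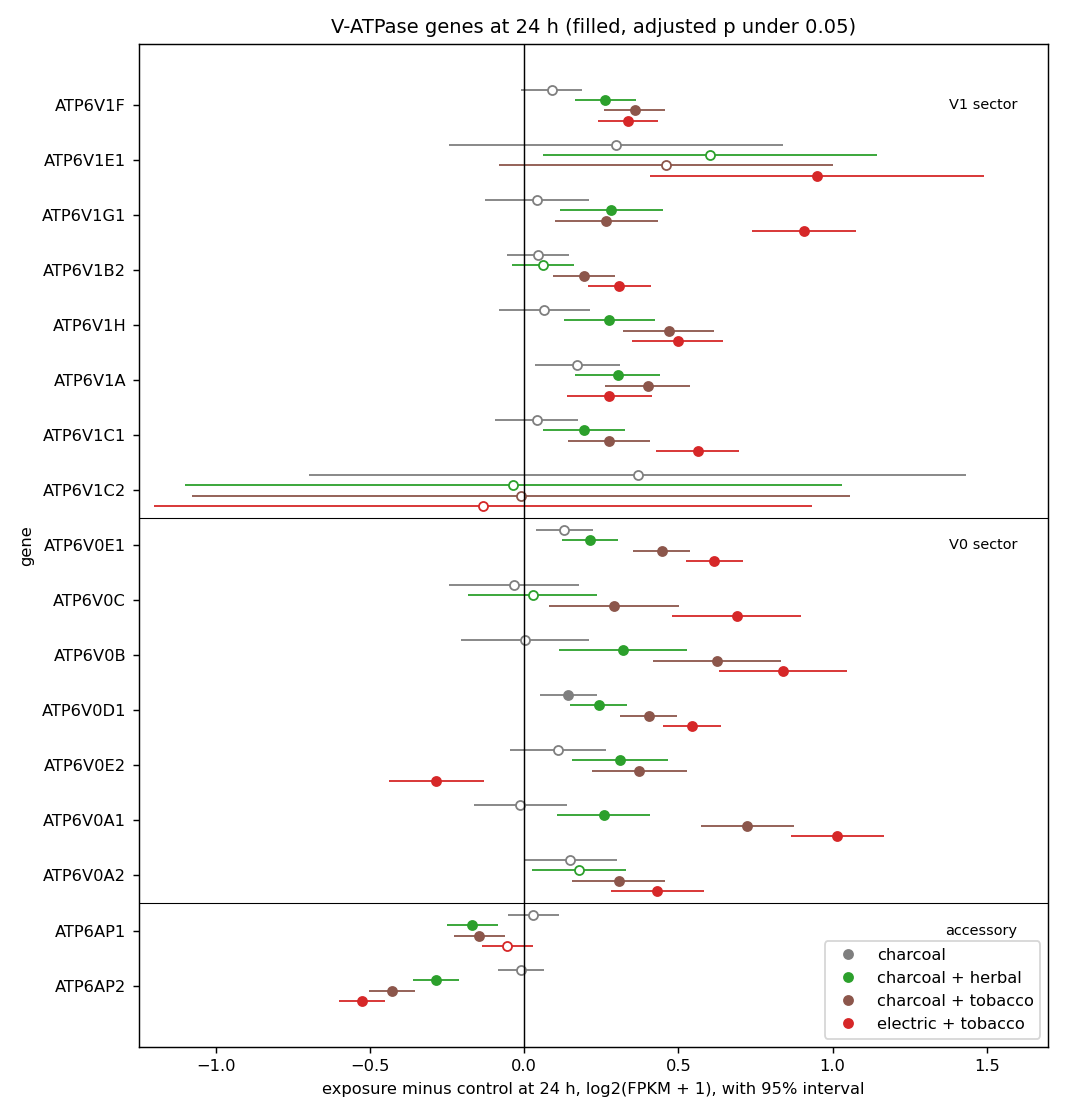
Log2 change against control at 24 h, with its 95% interval, for the 17 V-ATPase genes (rows: V1 sector, V0 sector, accessory) after the 4 exposures (colours); filled points have an adjusted p under 0.05. For most V1 and V0 genes the points move right from charcoal alone to electrically heated tobacco, as for ATP6V0A1 at -0.01, 0.26, 0.72 and 1.01; ATP6AP2 moves left, and ATP6V0E2 has its electric point at -0.28.

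The accessory genes were lower where they were called at 24 h. ATP6AP2, the accessory protein also known as the prorenin receptor, stood at 55.1, 58.0 and 57.4 FPKM at 24 h after electrically heated tobacco, 60.1, 61.3 and 61.2 FPKM after tobacco with charcoal and 72.3, 66.2 and 63.6 FPKM after herbal shisha, against 82.3, 82.0 and 82.7 FPKM in control wells. The 9 exposed wells were all below the control wells. Its log2 changes were -0.53 ± 0.04 (SE; adjusted p = 4.08e-11), -0.43 ± 0.04 (adjusted p = 8.8e-09) and -0.29 ± 0.04 (adjusted p = 9.1e-06). Charcoal alone left it at 80.6, 81.8 and 82.9 FPKM, with a log2 change of -0.01. ATP6AP1, the other accessory subunit, was lower by smaller amounts, with log2 changes of -0.15 after tobacco with charcoal and -0.17 after herbal shisha, and was not called after electrically heated tobacco at 24 h (log2 change -0.06).

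Of the 7 ATG8 family genes, 5 were higher and 0 lower at 24 h after electrically heated tobacco, beside 34.3% and 29.5% of all genes. They were MAP1LC3B, GABARAPL1, GABARAPL2 and the copies MAP1LC3B2 and GABARAPL3. The reads of these 2 copies are uncertain, so they may not count separately. GABARAP, the most abundant, and MAP1LC3A were not called. MAP1LC3B encodes LC3B, the protein most used to mark autophagosomes. It stood at 36.4, 27.6 and 42.0 FPKM at 24 h after electrically heated tobacco, 14.4, 11.8 and 13.3 FPKM after tobacco with charcoal, 13.2, 13.4 and 14.1 FPKM after herbal shisha and 12.8, 10.7 and 13.2 FPKM after charcoal alone, against 13.1, 13.7 and 12.7 FPKM in control wells. The electric wells stood far above the other 12, which overlapped each other. The log2 change was 1.34 ± 0.13 after electrically heated tobacco (SE; adjusted p = 5.96e-09), and -0.01, 0.04 and -0.10 after the 3 charcoal exposures. At 2 h MAP1LC3B was called higher after electrically heated tobacco, at 19.7, 21.6 and 15.4 FPKM, and after herbal shisha, at 16.9, 17.9 and 20.3 FPKM. Control wells then stood at 15.2, 12.2 and 15.2 FPKM. Each of these 2 h calls was lost under 4 alternatives (limma adjusted p up to 0.141 and 0.18). MAP1LC3B2, a near-identical copy, showed 31.4 ± 4.79 FPKM at 24 h after electrically heated tobacco against 12.6 ± 0.353 FPKM in control wells (SD, n = 3 each). Short reads may be split between the copies, so the 2 rows are not separate evidence.

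GABARAPL1, an ATG8 protein of the GABARAP branch, stood at 162, 119 and 178 FPKM at 24 h after electrically heated tobacco, 82.8, 101 and 94.3 FPKM after tobacco with charcoal, 74.2, 79.3 and 62.8 FPKM after herbal shisha and 97.6, 102 and 104 FPKM after charcoal alone, against 76.4, 78.6 and 55.0 FPKM in control wells. The herbal wells overlapped the control wells and those of the other exposures did not. The log2 changes were 1.12 ± 0.12 (SE; adjusted p = 3.31e-08), 0.42 ± 0.12 (adjusted p = 0.0072), 0.05 ± 0.12 and 0.54 ± 0.12 (adjusted p = 0.00535). The call for tobacco with charcoal was lost without the control well at 55.0 FPKM and with the compared groups alone (adjusted p up to 0.0795). The call for charcoal alone was lost with the compared groups alone (adjusted p = 0.0557). GABARAPL3, a transcribed copy with reads uncertain against GABARAPL1, was higher by 0.73 after electrically heated tobacco and is listed at 0 in 1 well of tobacco with charcoal at 2 h.

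GABARAP and GABARAPL2 are the other members of that branch. GABARAP stood at 192, 203 and 204 FPKM at 24 h after electrically heated tobacco, against 204, 217 and 200 FPKM in control wells; the wells overlapped and the log2 change was -0.05 ± 0.04 (SE; adjusted p = 0.306). GABARAPL2 was higher by 0.20 after electrically heated tobacco and by 0.19 after tobacco with charcoal. MAP1LC3A was called once among the 8 comparisons with control, after herbal shisha at 2 h, where its log2 change was -0.35; that call was lost with median-of-ratios scaling and on leaving out any of 4 single wells (adjusted p up to 0.119).

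**Figure D4:**
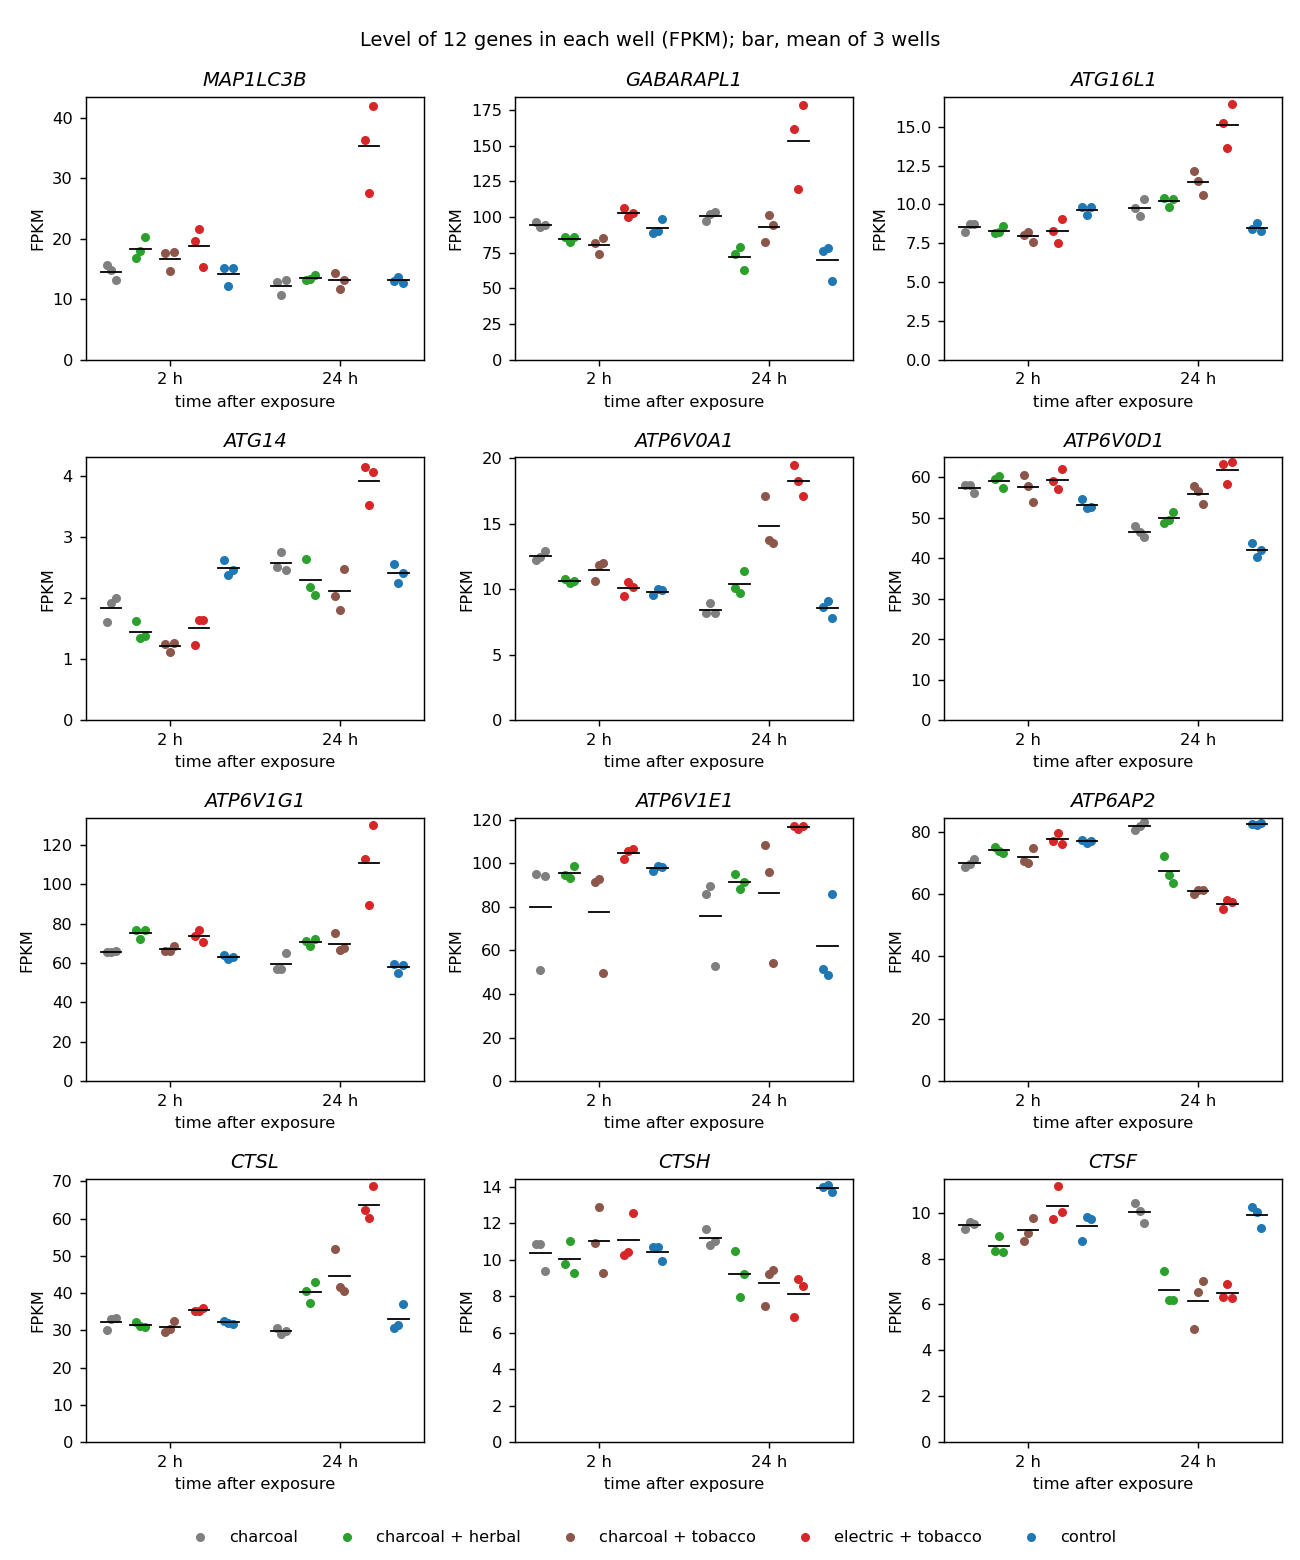
FPKM of 12 genes in each well at 2 h and 24 h after electrically heated tobacco (red), tobacco with charcoal (brown), herbal shisha with charcoal (green), charcoal alone (grey) and in control wells (blue); each point is a well and each bar the mean of 3. MAP1LC3B stands at 27.6 to 42.0 FPKM in the electric wells at 24 h and at or below 21.6 FPKM in all other groups, and ATP6V1E1 shows its 2 levels across groups.

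The conjugation genes gave a mixed picture. ATG16L1, which positions the conjugation complex on the membrane, was below control at 2 h and above it at 24 h. At 2 h it stood at 8.32, 7.50 and 9.06 FPKM after electrically heated tobacco, 8.05, 8.22 and 7.58 FPKM after tobacco with charcoal and 8.13, 8.22 and 8.58 FPKM after herbal shisha, against 9.83, 9.34 and 9.83 FPKM in control wells. At 24 h it stood at 15.2, 13.6 and 16.5 FPKM, 12.2, 11.5 and 10.6 FPKM, and 10.4, 9.82 and 10.4 FPKM in the same order of exposures, against 8.42, 8.82 and 8.27 FPKM in control wells. The groups were apart at both times. The 24 h log2 changes were 0.76 ± 0.06 (SE; adjusted p = 5.46e-10), 0.38 ± 0.06 and 0.24 ± 0.06. The 2 h log2 changes were -0.20, -0.25 and -0.20, and all 3 of those calls were lost with median-of-ratios scaling.

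ATG12, the ubiquitin-like partner of ATG5, was higher by 0.30 after electrically heated tobacco at 24 h, at 16.7, 15.4 and 17.5 FPKM against 12.8, 13.8 and 13.3 FPKM in control wells. ATG10, the enzyme that joins ATG12 to ATG5, was lower there, at 1.06, 1.73 and 0.813 FPKM against 2.19, 2.04 and 1.87 FPKM in control wells, with a log2 change of -0.48 (adjusted p = 0.00136). ATG5 itself was called in none of the 8 comparisons; its log2 changes carried an SE of 0.31, against 0.04 for ATG12.

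ATG14, the subunit that directs the lipid kinase complex to the site where autophagosomes form, was lower in all 4 exposures at 2 h and higher after electrically heated tobacco at 24 h. At 2 h it stood at 1.24, 1.65 and 1.64 FPKM after electrically heated tobacco, 1.26, 1.12 and 1.27 FPKM after tobacco with charcoal, 1.63, 1.35 and 1.39 FPKM after herbal shisha and 1.61, 1.93 and 2.00 FPKM after charcoal alone, against 2.62, 2.38 and 2.47 FPKM in control wells. No exposed well reached the control wells. The log2 changes were -0.48 ± 0.08 (SE; adjusted p = 0.000107), -0.66 ± 0.08 (adjusted p = 2.04e-06), -0.51 ± 0.08 (adjusted p = 4.78e-05) and -0.30 ± 0.08 (adjusted p = 0.0122). With median-of-ratios scaling the charcoal call was lost (adjusted p = 0.081) and the other 3 were kept; it was also lost without control well 1 or charcoal well 1. At 24 h it stood at 4.16, 3.53 and 4.08 FPKM after electrically heated tobacco, against 2.56, 2.25 and 2.42 FPKM in control wells, a log2 change of 0.53 ± 0.08 (SE; adjusted p = 9.5e-06). The other 3 exposures had log2 changes between -0.13 and 0.07 at 24 h and were not called.

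The cysteine cathepsins divided at 24 h. CTSL, an endopeptidase of broad specificity, stood at 62.2, 60.2 and 68.7 FPKM after electrically heated tobacco, 51.8, 41.6 and 40.4 FPKM after tobacco with charcoal, 40.6, 37.3 and 42.9 FPKM after herbal shisha and 30.5, 29.1 and 29.7 FPKM after charcoal alone, against 30.7, 31.4 and 36.9 FPKM in control wells. The wells of the 3 shisha exposures lay above the control wells. Those of charcoal alone lay below them. CTSL had log2 changes of 0.93 ± 0.08 (SE; adjusted p = 4.37e-10), 0.42 ± 0.08 (adjusted p = 0.000102), 0.28 ± 0.08 (adjusted p = 0.00786) and -0.14 ± 0.08 (not called). The herbal call was lost with the compared groups alone and without control well 1 or herbal well 3 (adjusted p up to 0.065).

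CTSH, an aminopeptidase, and CTSF were lower in the same 3 exposures. CTSH stood at 6.87, 8.94 and 8.56 FPKM after electrically heated tobacco, 7.48, 9.20 and 9.45 FPKM after tobacco with charcoal and 10.5, 7.95 and 9.22 FPKM after herbal shisha, against 14.0, 14.1 and 13.7 FPKM in control wells. Exposed and control wells did not overlap, and the log2 changes were -0.72 ± 0.11 (SE; adjusted p = 4.57e-06), -0.63 ± 0.11 and -0.55 ± 0.11. In control wells CTSH was higher at 24 h than at 2 h, 13.9 ± 0.196 FPKM against 10.4 ± 0.453 FPKM (SD, n = 3 each), a log2 change of 0.39 (adjusted p = 0.0173), and this call was lost without control well 3 of 2 h, or without control well 1 or 2 of 24 h. The exposed wells at 24 h are thus set against control wells that had moved. CTSF stood at 6.35, 6.89 and 6.28 FPKM after electrically heated tobacco, 4.91, 6.53 and 7.01 FPKM after tobacco with charcoal and 7.45, 6.19 and 6.21 FPKM after herbal shisha, against 10.3, 10.1 and 9.34 FPKM in control wells. Its log2 changes were -0.54, -0.62 and -0.52, and charcoal alone left it at 0.02.

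Of the other cysteine cathepsins, CTSK, a collagen-degrading enzyme, was lower at 2 h in all 4 exposures, with log2 changes of -0.23 after electrically heated tobacco, -0.30 after tobacco with charcoal, -0.33 after herbal shisha and -0.32 after charcoal alone. Its exposed wells ranged from 6.39 to 7.74 FPKM at 2 h, against 8.51, 9.51 and 8.45 FPKM in control wells. With median-of-ratios scaling 2 of the 4 calls remained, those of charcoal alone and herbal shisha, and the electric call was also lost on leaving out any of 3 single wells (adjusted p up to 0.14 over these alternatives). CTSK was called in none of the exposures at 24 h. CTSC, which activates granule proteases, was lower by a log2 change of -0.24 after electrically heated tobacco at 24 h, and CTSV was called in none of the 8.

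CTSA and CTSD are among the most abundant of the 39. At 24 h CTSA, which also protects other lysosomal enzymes, stood at 96.3, 95.1 and 98.8 FPKM after electrically heated tobacco, 73.8, 81.5 and 84.4 FPKM after tobacco with charcoal and 91.3, 84.3 and 82.0 FPKM after herbal shisha, against 98.4, 104 and 101 FPKM in control wells. The electric wells overlapped the control wells and the wells of both charcoal-heated shisha did not. The log2 changes were -0.06 ± 0.05 (not called), -0.34 ± 0.05 (SE; adjusted p = 3.83e-06) and -0.23 ± 0.05 (adjusted p = 0.00073). CTSD had log2 changes of 0.03, -0.14 and -0.11 in the same order, of which that of tobacco with charcoal was called and was lost without control well 2, without tobacco well 1 and with the compared groups alone (adjusted p up to 0.139). LAMP2, the membrane protein that serves as a receptor in chaperone-mediated autophagy, was lower by a log2 change of -0.16 after tobacco with charcoal at 24 h and of -0.15 after electrically heated tobacco at 2 h, the second of which was lost under 5 alternatives, median-of-ratios scaling among them (adjusted p up to 0.317).

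The design allows the exposures to be compared directly, though at amounts that may differ. For the heat source, electrically heated tobacco and tobacco with charcoal differed at 24 h in 20 of 39 genes, 16 higher and 4 lower, beside 47.8% of all genes (22.9% higher, 24.9% lower). The largest difference was that of MAP1LC3B, 35.3 ± 7.27 FPKM against 13.1 ± 1.31 FPKM (SD, n = 3 each), 1.34 ± 0.13 on the log2 scale (SE; adjusted p = 5.04e-08). GABARAPL1 differed by 0.70, ATG14 by 0.66, ATP6V1G1 by 0.64 and CTSL by 0.51, all higher with electric heating and all without overlap of wells. The 4 genes lower with electric heating were ATP6V0E2, ATG10, CTSC and ATP6AP2, the last of which was lost under 4 alternatives (adjusted p up to 0.15). At 2 h the 2 groups differed in 13 genes, 10 higher and 3 lower, beside 23.3% of all genes (12.7% higher, 10.6% lower); the 3 lower ones were the V1 genes ATP6V1A, ATP6V1B2 and ATP6V1C1. With median-of-ratios scaling that split became 5 higher and 4 lower (9.45% and 13.6% of all genes), and with the compared groups alone 4 genes were called. Without well 3 of tobacco with charcoal 6 were called, and without electric well 1 there were 8.

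ATP6V1C1 shows the contrast of heat source at 2 h. It stood at 17.4, 17.8 and 13.6 FPKM after electrically heated tobacco, against 21.6, 22.1 and 22.8 FPKM after tobacco with charcoal, with a log2 change of -0.43 ± 0.06 (SE; adjusted p = 4.82e-05, or 0.054 when the compared groups were fitted alone). After herbal shisha it stood at 23.6, 21.7 and 23.0 FPKM and after charcoal alone at 23.4, 24.2 and 23.9 FPKM, against 17.8, 17.3 and 18.2 FPKM in control wells. All 9 charcoal-exposed wells were above the control wells, and the electric wells were not; the log2 changes against control were 0.30, 0.34 and 0.41 with charcoal, and -0.13 without it, which was not called.

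For the shisha, herbal shisha with charcoal and charcoal alone differed at 24 h in 15 genes, 8 higher and 7 lower, beside 31.5% of all genes (16.2% higher, 15.3% lower). CTSL differed by 0.42 and ATP6V0A1 by 0.27 (lost without herbal well 3, adjusted p = 0.0604), and CTSF by -0.54, CTSA by -0.32 and ATP6AP2 by -0.28. GABARAPL1 was lower after herbal shisha than after charcoal alone, 72.1 ± 8.45 FPKM against 101 ± 3.09 FPKM (SD, n = 3 each), with a log2 change of -0.49 ± 0.12 (SE; adjusted p = 0.00371). At 2 h these 2 groups differed in 10 genes, 8 higher and 2 lower, beside 24.4% of all genes (10.1% higher, 14.3% lower). That count was 5 without herbal well 3, 6 without herbal well 1, charcoal well 2 or charcoal well 3, and 17 with the compared groups alone. At 24 h it was 9 without herbal well 3.

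For tobacco itself, tobacco with charcoal and herbal shisha with charcoal differed at 24 h in 4 genes, 3 higher and 1 lower, beside 5.12% of all genes (2.41% higher, 2.71% lower). ATP6V0A1 was higher with tobacco by 0.47 ± 0.07 (SE; adjusted p = 0.00244), ATP6V0E1 by 0.23 and ATP6V0D1 by 0.16, and ATP6AP2 was lower by a log2 change of -0.14. With the compared groups alone 0 of the 39 were called, and leaving out single wells gave 1 without tobacco well 1, 2 without herbal well 1 or 2, and 7 without herbal well 3 or tobacco well 3. At 2 h limma called 0 of 39, beside 0.61% of all genes, with 7 at an unadjusted p under 0.05. The count was also 0 under each of the alternatives run.

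Time was examined by the difference between the 24 h and the 2 h log2 change of the same exposure. This difference was called in 28 of 38 genes, leaving out ATP6V1B1-AS1, for electrically heated tobacco (57.6% of all genes), and of all 39 in 17 for tobacco with charcoal (41.1%), 8 for herbal shisha (32.3%) and 8 for charcoal alone (23.2%). The median difference over all genes was 0.09 to 0.13 on the log2 scale for the 4 exposures and -0.01 to 0.01 with median-of-ratios scaling, so the values are read against it. For electrically heated tobacco 19 differences were positive and 9 negative (34.8% and 22.8% of all genes), led by ATG14 at 1.01, ATP6V0A1 at 0.98, ATG16L1 and GABARAPL1 at 0.96 each and MAP1LC3B at 0.96. The lowest were CTSH at -0.79, CTSF at -0.65, ATG10 at -0.59 and ATP6AP2 at -0.54. For tobacco with charcoal 13 were positive and 4 negative (30.3% and 10.8% of all genes), and with scaling 7 and 6 (15.9% and 17.9%). For herbal shisha 4 were positive and 4 negative (24% and 8.3%), and with scaling 2 and 8 (11.5% and 14.1%). For charcoal alone 6 were positive and 2 negative (16.2% and 7%), and with scaling 0 and 2 (7.84% and 10.8%), so that the split of all genes moved with the scale as well.

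Control wells moved between the times as well. Against 2 h, 10 of the 39 genes were called at 24 h in control wells, beside 16.9% of all genes (7.44% higher, 9.44% lower): CTSH was higher, and ATP6V0D1, ATP6V0E1, ATP6V1B2, ATP6V1F, ATP6V0A2, ATP6AP1, CTSD, CTSA and GABARAPL1 were lower. Among those called, GABARAPL1 had a log2 change of -0.41 and ATP6V0D1 of -0.33 ± 0.04 (SE; adjusted p = 1.68e-05); the call of GABARAPL1 was lost with the compared groups alone and without control well 3 of either time (adjusted p up to 0.165). ATP6V1E1, at -0.70, was not called. Without control well 1 at 2 h the count was 6. Of these lower genes, 5 are subunits of the pump sectors, and all 5 were higher than control after both tobacco exposures at 24 h. The same control wells of 24 h enter both comparisons, so a low level in them moves both values and the 2 results are not independent. How many of all genes lower in control wells did the same is not given here.

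Other genes of these pathways, taken from lists chosen by function, were called in both directions at 24 h after electrically heated tobacco, where the median log2 change of all genes was 0.03, with 34.3% of them higher and 29.5% lower. Of 22 tested lysosomal hydrolases other than cathepsins, 3 were higher and 13 lower, with a median log2 change of -0.25. GLA, the alpha-galactosidase, stood at 57.5 ± 7.43 FPKM against 22.4 ± 1.62 FPKM in control wells (SD, n = 3 each), a log2 change of 1.32 (adjusted p = 3.59e-12), while the arylsulfatase ARSB fell, with a log2 change of -0.74, and the lipase LIPA, with -0.57. After tobacco with charcoal 2 hydrolases were higher and 13 lower (25.9% and 18.6% of all genes), after herbal shisha 1 and 9 (16.5% and 10.4%), and after charcoal alone 0 and 1 (6.05% and 3.82%). Of 13 tested genes of the lysosomal membrane, 7 were higher and 3 lower after electrically heated tobacco (median 0.19), CD63 higher by 0.45 and the channel TPCN1 lower with a log2 change of -0.91.

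Among 11 tested receptors of selective autophagy 4 were higher and 3 lower (median 0.06), shares near those of all genes. The mitophagy receptors BNIP3 and BNIP3L were both lower: BNIP3 stood at 43.4 ± 1.3 FPKM after electrically heated tobacco, 40.4 ± 0.904 FPKM after tobacco with charcoal, 64.6 ± 11.8 FPKM after herbal shisha and 99.2 ± 7.92 FPKM after charcoal alone, against 162.5 ± 4.2 FPKM in control wells (SD, n = 3 each). Its log2 changes were -1.88, -1.98, -1.33 and -0.71. The control wells had risen: BNIP3 stood at 34.7 ± 1.93 FPKM in them at 2 h, a log2 change of 2.20 between the times (adjusted p = 4.19e-14), and BNIP3L was also higher in them at 24 h, by 0.69. The means of all 4 exposed groups at 24 h were above the control wells of 2 h. Of 16 tested genes of initiation and nucleation 8 were higher and 3 lower after electrically heated tobacco (median 0.19); at 2 h it was 0 higher and 5 lower (9.27% and 24.8% of all genes), and PIK3R4, a subunit of the kinase complex that holds ATG14, had log2 changes of -0.58, -0.54, -0.40 and -0.32 after electrically heated tobacco, tobacco with charcoal, herbal shisha and charcoal alone at 2 h.

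Around TFEB and lysosomal mTORC1 signalling, 22 genes were tested. At 24 h after electrically heated tobacco 8 were higher and 6 lower (median 0.09), near the 34.3% and 29.5% of all genes. TFEB stood at 1.64 ± 0.278 FPKM there and at 0.857 ± 0.127 FPKM in control wells (SD, n = 3 each), a log2 change of 0.51 (adjusted p = 0.000422), and was not called after any of the other exposures at 24 h. Its relatives MITF and TFE3 were called after tobacco with charcoal, higher by 0.48 and 0.56, and not after electrically heated tobacco. DDIT4, an inhibitor of mTORC1, had a log2 change of -1.34 after electrically heated tobacco and -1.92 after tobacco with charcoal; in control wells it was higher at 24 h than at 2 h by 1.57. Of 17 tested genes of lysosomal sorting and fusion 6 were higher and 11 lower after electrically heated tobacco (median -0.20), with RAB7A, the small GTPase of late endosomes, at 194 ± 13.9 FPKM against 115.5 ± 2.64 FPKM in control wells (SD, n = 3 each). Of 10 V-ATPase assembly factors and partners 3 were higher and 5 lower (median -0.21), of 4 cathepsin inhibitors 0 and 2, and of 3 galectins 1 and 1.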

How the data were processed

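RNA of BEAS-2B cells was sequenced as 50-base single-end reads. The authors deposited one table per well with FPKM values per RefSeq transcript; the unit is taken from the name of the authors' deposited matrix, which repeats these tables and was not used. HISAT2 2.1.0, StringTie 1.3.4d and build hg38 are named in the submitters' processing notes; annotation release, strand setting and read counts are not given in the sources used here, so depth is unknown. FPKM was used as deposited, and 100 tested genes with a median of 1 FPKM or more are listed at 0 in some well.

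The highest-mean row per name was kept (each of the 39 genes had 1 row), names at 1 FPKM or more in at least 3 wells were tested (8531), and limma 3.58.1 (trend, R 4.3.3) was fitted to log2(FPKM + 1) with 1 mean per group over all 30 wells; p-values were adjusted over all genes tested. The scripts were tested on simulated data. Alternatives were a pseudocount of 0.1, no filter, the compared groups alone, the replicate number as a block, median-of-ratios scaling, summed rows and omission of each well. Genes named in each comparison were ATG5, ATP6V1A, ATP6V0D1, CTSD, CTSL, GABARAP, GABARAPL1, LAMP2 and MAP1LC3B where they bear on it, up to 5 called members per direction by size of change, with no overlap of wells, the 3 of smallest p for each difference between times and the 3 called genes of smallest p per list; other genes named to account for the members, and TFEB and TFE3, were picked after their values were seen. Counts without ATP6V1B1-AS1 were added after seeing the data. The members and lists were chosen with earlier results of these data known. No protein sequences were used here.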

Additional observations from a re-analysis of the deposited data

Results flagged for a closer look

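For 26 values the change against control at 24 h differed from that at 2 h by the limma test of the difference, in genes the text follows. Each number is the 24 h log2 change minus the 2 h log2 change. For electrically heated tobacco these were ATP6V0A1 0.98, GABARAPL1 0.96, ATG16L1 0.96, MAP1LC3B 0.96, CTSL 0.79, ATP6V1A 0.65, ATP6V0D1 0.39, GABARAP -0.18 and ATP6AP2 -0.54. For tobacco with charcoal they were ATG16L1 0.64, GABARAPL1 0.62, ATP6V1H 0.56, CTSL 0.48, ATP6V1A 0.38, ATP6V0D1 0.30 and ATP6AP2 -0.33. For herbal shisha with charcoal they were ATG14 0.46, ATG16L1 0.43, CTSL 0.32 and ATP6AP2 -0.23. For charcoal alone they were GABARAPL1 0.50, CTSK 0.40, ATG16L1 0.34, CTSD 0.22, GABARAP 0.21 and ATP6V1C1 -0.36.

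With median-of-ratios scaling between wells, the calls of CTSD, GABARAP, GABARAPL1, ATG16L1 and CTSK for charcoal alone, of CTSL for herbal shisha, and of ATP6V0D1 and ATP6V1A for tobacco with charcoal were lost, and the other 18 were kept. The cause was not tested. No group holds more than 3 wells, so single wells were not screened for distance from their group.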

How the results depend on the processing

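Among the alternatives no called change of a named gene turned its sign. Counts of called genes, here over all 39, kept within 1.5 times under a pseudocount of 0.1, under summed rows and without ATP6V1B1-AS1. With no filter on low values and with median-of-ratios scaling charcoal alone at 24 h went to 1 gene. Scaling also gave 2 genes for the difference between times of charcoal alone. With the compared groups fitted alone, counts became 14 (2 h) and 1 (24 h) for charcoal alone, 17 for herbal shisha against charcoal alone at 2 h, 4 for electrically heated tobacco against tobacco with charcoal at 2 h, 0 for tobacco with charcoal against herbal shisha at 24 h and 13 for the difference between times of charcoal alone.

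Leaving out each well gave ranges of 7 to 13, 8 to 11, 9 to 13 and 5 to 7 at 2 h, and 28 to 29, 21 to 27, 12 to 18 and 1 to 2 at 24 h, for electrically heated tobacco, tobacco with charcoal, herbal shisha and charcoal alone against control. Between exposures they were 6 to 11 (2 h) and 18 to 23 (24 h) for electric against charcoal heating, 0 to 0 and 1 to 7 for tobacco against herbal shisha, and 5 to 8 and 9 to 17 for herbal shisha against charcoal alone; control wells over time gave 6 to 9. The differences between times gave 27 to 30, 16 to 19, 6 to 9 and 6 to 8 in the order of exposures above. The replicate numbers were not taken to pair the wells: in 0 of 15 compared pairs of groups did all 3 same-numbered pairs of wells correlate above 0.1. Electrically heated tobacco against tobacco with charcoal at 24 h came nearest, at 0.231, 0.181 and 0.071, so this rule does not exclude pairing. A fit with the replicate block gave 29, 26, 17 and 2 called genes at 24 h and moved no count by over 1.5 times. Depth is unknown, so what it limits could not be computed.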
